A study of Mus musculus with 2 samples.

Results

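The oligoadenylate synthetase (OAS) family was followed here as 6 genes, Oas1a, Oas1g, Oas2, Oas3, Oasl1 and Oasl2, in single cells of MC38 tumours. They were taken by symbol from the 31053 features of the deposited count matrices, which hold 11 features whose symbol starts with Oas. All 6 were detected. MC38 is a mouse colon carcinoma line, grown here in the flank of C57BL/6 mice. Treatment began 5 days after the cells were injected, when tumours averaged 100 mm3, and lasted 14 days, with 6 mice in each of 2 groups. The first group received SHP099 hydrochloride at 5 mg/kg each day, marked i.g. in the treatment text. SHP099 is an allosteric inhibitor of SHP2, the phosphatase encoded by Ptpn11. The control group received PBS by the treatment text, and its own label reads untreated. Strain, tumour line and schedule were shared by both groups. Each group gave 1 single-cell library, and the sources used here do not say how many tumours went into it. With 1 library per group no difference below has a replicate check, no test was run, and the intervals cover counting error only.

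OAS enzymes are induced by interferons and bind double-stranded RNA, a sign of viral infection or of misplaced self RNA. Bound enzyme joins ATP into short adenylate chains with an unusual linkage, and these chains act as a messenger that leads to the breakdown of cellular and viral RNA and a halt in translation. Oas1a and Oas1g encode the mouse synthetases of the smallest type, while the proteins of Oas2 and Oas3 repeat the synthetase unit. Oasl1 and Oasl2 carry ubiquitin-like domains after that unit. The mouse Oasl2 protein can still make the chains, whereas Oasl1 lacks the activity and is known in mice to hold back translation of the Irf7 messenger RNA, which encodes a master factor of interferon production.

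All 6 genes lie on mouse chromosome 5 in GENCODE M21 on build GRCm38, in a pair of clusters. Oas2, Oas3, Oas1g and Oas1a lie on the minus strand within 177 kb, at 120730333 to 120749853, 120753098 to 120777661, 120876142 to 120887613 and 120896256 to 120907521. Oasl2 and Oasl1 lie on the plus strand within 41.0 kb, at 114896936 to 114912234 and 114923240 to 114937915. Coding length was 1101 bases for Oas1a and for Oas1g, 2226 for Oas2 and 3414 for Oas3. It was 1533 bases for Oasl1 and 1524 for Oasl2. The libraries count RNA by its 3' end, so a UMI (unique molecular identifier) stands for 1 captured molecule whatever the transcript's length, and levels were not divided by length. The transcripts of Oas1a and Oas1g were 90.6% identical. Of the 401 stretches of 100 bases in the last 500 bases, 164 of Oas1a (40.9%) occurred also in other genes, all in Oas1g, and 47 of Oas1g (11.7%) occurred in Oas1a. A read from such a stretch matches both copies and cannot be assigned to 1 of them, so their separate values are uncertain. The other 4 members shared no such stretch with any gene.

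Promoter sequences from RefSeq on GRCm38.p6 were at hand for 5 of the 6 members, each 250 bases before to 50 bases after the start site. They are shown because the members are induced through a shared route: the interferon-stimulated response element, a site through which type I interferon switches genes on. Capitals mark matches, on either strand, to its core, GAAA followed after any 2 bases by GAAA, and to the shorter core AANNGAAA that interferon regulatory factors bind. Every match of the longer motif also holds the shorter one.
Oas1a promoter, chr5:120907476-120907775, minus strand: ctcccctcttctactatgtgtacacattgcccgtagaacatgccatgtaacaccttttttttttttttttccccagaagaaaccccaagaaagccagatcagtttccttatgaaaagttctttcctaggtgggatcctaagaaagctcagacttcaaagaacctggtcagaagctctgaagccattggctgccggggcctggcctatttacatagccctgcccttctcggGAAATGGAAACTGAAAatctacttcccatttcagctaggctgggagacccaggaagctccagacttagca
Oas1g promoter, chr5:120887564-120887863, minus strand: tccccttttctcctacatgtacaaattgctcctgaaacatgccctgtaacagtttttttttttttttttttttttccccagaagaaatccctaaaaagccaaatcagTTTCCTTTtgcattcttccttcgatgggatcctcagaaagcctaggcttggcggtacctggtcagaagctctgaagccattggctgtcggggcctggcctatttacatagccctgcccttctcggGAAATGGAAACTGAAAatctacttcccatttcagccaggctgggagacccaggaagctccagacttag
Oas3 promoter, chr5:120777610-120777909, minus strand: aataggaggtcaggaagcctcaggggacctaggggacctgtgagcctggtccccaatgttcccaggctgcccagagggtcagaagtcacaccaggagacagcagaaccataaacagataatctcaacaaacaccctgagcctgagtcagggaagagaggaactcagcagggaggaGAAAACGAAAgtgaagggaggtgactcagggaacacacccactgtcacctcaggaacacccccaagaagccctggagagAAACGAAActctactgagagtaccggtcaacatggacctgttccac
Oasl1 promoter, chr5:114922990-114923289, plus strand: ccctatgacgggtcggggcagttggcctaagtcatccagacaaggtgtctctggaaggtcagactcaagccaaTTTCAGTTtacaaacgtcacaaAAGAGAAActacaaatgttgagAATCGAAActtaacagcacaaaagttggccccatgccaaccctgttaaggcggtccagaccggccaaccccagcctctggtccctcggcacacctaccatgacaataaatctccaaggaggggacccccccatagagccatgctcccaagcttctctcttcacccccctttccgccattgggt
Oasl2 promoter, chr5:114896684-114896983, plus strand: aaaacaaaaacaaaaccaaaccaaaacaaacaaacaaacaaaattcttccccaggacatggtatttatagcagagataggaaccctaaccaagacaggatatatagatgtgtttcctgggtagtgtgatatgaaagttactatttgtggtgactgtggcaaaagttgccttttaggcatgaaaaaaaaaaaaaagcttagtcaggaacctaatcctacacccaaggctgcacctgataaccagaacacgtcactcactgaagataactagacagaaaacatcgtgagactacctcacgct

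The longer motif occurred in 3 of these 5 promoters and in 3.44% of the 32851 promoters of the same length. Oas1a and Oas1g held it in the same overlapping pair, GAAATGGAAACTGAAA, which starts 20 bases before the start site in Oas1a and 18 bases before it in Oas1g. Oas3 held GAAAACGAAA 75 bases before its start. The shorter motif occurred in 4 of the 5 promoters, against 23.9% of all promoters. Oasl1 held it 3 times between 177 and 133 bases before its start, without the longer form. No match to either motif lay in the Oasl2 window. The Oas1a and Oas1g windows were 85.3% identical and those of Oasl1 and Oasl2 45.9%. A match is a description of letters and was not linked here to binding.

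The SHP099 library held 8263 barcodes with 112901642 UMIs and the control library 8245 barcodes with 126218180 UMIs, and 100 barcode sequences occurred in both. After limits on genes and mitochondrial share and removal of called doublets, 7702 SHP099 cells and 7688 control cells remained. Cells were clustered without the OAS and other interferon-induced genes, and clusters took their names from marker genes, so that a name stands for likeness to a type. A level is given in CPM, the UMIs of a gene over all UMIs of the class times 1000000, with its exact Poisson 95% interval where one follows. A difference is a log2 ratio of SHP099 over control with 0.5 CPM added, followed by its exact 95% counting interval. Only classes with at least 200 cells in each library were compared: 2702 SHP099 and 2602 control mononuclear phagocytes (macrophages and monocytes), 4295 and 4182 Xist-negative cells, and 286 and 424 T cells. The T cell class was cluster 7 alone, led by Cd8b1 and Cd8a, so its values stand for that cluster and not for all T cells. The Xist-negative cells lack the transcript of the inactive X chromosome. They had 4 of 6 genes of an MC38 list above 1 CPM in both libraries, but the 6 epithelial markers together reached 0.13 and 0.269 CPM, so they are named by their lack of Xist. RNA measures differed between the libraries within these classes. Mitochondrial genes took 3.17% of phagocyte UMIs in the SHP099 library and 2.25% in control, and 3.60% and 3.09% of those of Xist-negative cells. Haemoglobin RNA stood at 158 and 1.97 CPM in phagocytes and at 112 and 30.8 CPM in Xist-negative cells, and Malat1, a nuclear RNA, at 24333 and 17823 CPM in Xist-negative cells. The part of these measures in the results below was not tested.

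Mononuclear phagocytes carried the most OAS RNA of the 3 compared classes, and T cells the least, in both libraries. The 6 members together stood at 387 CPM (377 to 398) in SHP099 phagocytes and 289 CPM (280 to 299) in control phagocytes. Xist-negative cells stood at 158 CPM (155 to 161) in the SHP099 library and 120 CPM (118 to 122) in control. T cells stood at 73.3 CPM (55.9 to 94.3) and 41.8 CPM (31.6 to 54.3). None of these intervals overlapped between classes within a library. Xist-negative cells still held most of the family's UMIs, 14578 of 20144 in the SHP099 library and 12463 of 16448 in control, and made up 55.8% and 54.4% of all cells. They were much deeper than phagocytes, at a median of 20152 and 24315.5 UMIs per cell against 4292 and 4403. Per UMI they stood below the level over all cells, which was 187 CPM in the SHP099 library and 137 CPM in control.

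The smaller classes filled the space between, with wide intervals. Dendritic cells stood at 246 CPM (203 to 296) in the SHP099 library and 269 CPM (219 to 327) in control. Endothelial cells stood at 273 CPM (223 to 330) and 173 CPM (133 to 221), and fibroblasts at 260 CPM (218 to 308) and 170 CPM (140 to 205). These 3 overlapped one another in the SHP099 library, and the control dendritic interval overlapped that of the control phagocytes. NK cells stood at 59.2 CPM (30.6 to 103.4) and 65.7 CPM (42.1 to 97.8), overlapping the T cells of both libraries. Plasmacytoid dendritic cells, known for making type I interferon, gave 4 family UMIs in 5 SHP099 cells and 2 in 10 control cells, too few to place. The highest level of all was in cluster 16, which was left unnamed because the neutrophil genes S100a9 and S100a8 led it beside monocyte genes. It stood at 664 CPM (546 to 799) in 67 SHP099 cells and 444 CPM (349 to 556) in 74 control cells. Cluster 19 carried T cell markers and was led by Tnfrsf4 and Icos, but its name was withheld for low depth. It stood at 181 CPM (130 to 245) in the SHP099 library and 172 CPM (118 to 244) in control, above the T cells in each.

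**Figure D1:**
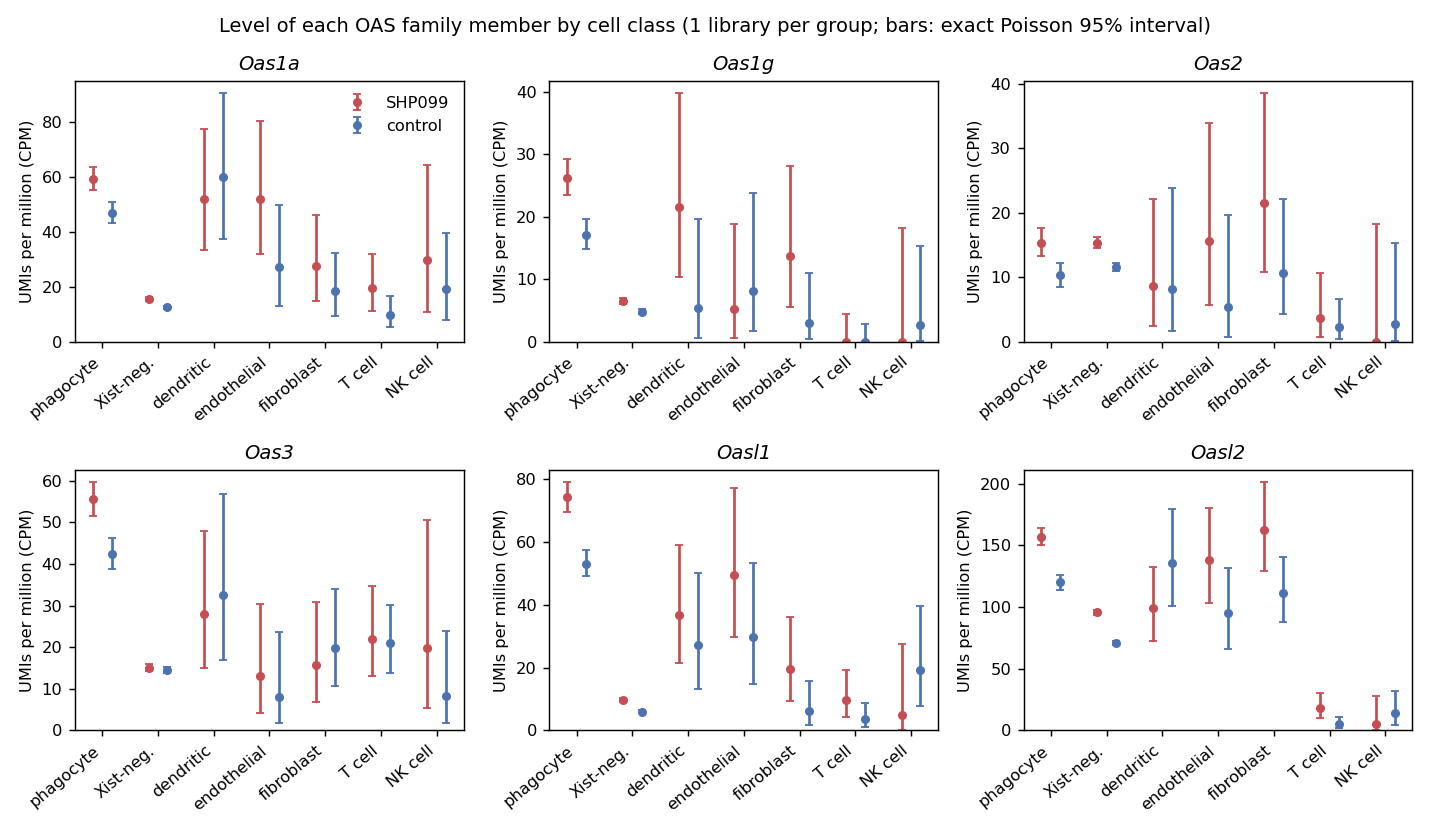
Level of each OAS member in CPM (linear axis) in 7 named cell classes, for the SHP099 library (red) and the control library (blue). Points are single-library values and bars exact Poisson 95% intervals. Phagocytes sit highest for Oas3 and Oasl1 in both libraries, while Oasl2 is near the bottom in T and NK cells.

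Members differed in where they were found. Oasl2 was the most abundant member of phagocytes, at 157 CPM in the SHP099 library and 120 CPM in control, and of Xist-negative cells, at 95.8 and 70.6 CPM. Oasl1 came next in phagocytes, at 74.1 and 53.0 CPM, but was scarce in Xist-negative cells, at 9.71 and 5.90 CPM. Oas1a stood at 59.1 and 46.7 CPM in phagocytes and at 15.6 and 12.5 CPM in Xist-negative cells. Oas3 was close to it in both classes, at 55.6 and 42.4 CPM and at 15.1 and 14.4 CPM. The synthetase gene Oas2 broke this order. Its level was 15.3 CPM in SHP099 phagocytes and 15.3 CPM in SHP099 Xist-negative cells, against 10.3 and 11.6 CPM in the control cells of these classes. Oas1g, the near copy of Oas1a, stood at 26.3 and 17.1 CPM in phagocytes and at 6.51 and 4.77 CPM in Xist-negative cells. No Oas1g UMI was found among 818987 SHP099 and 1338217 control T cell UMIs, which allows levels of up to 3.66 and 2.24 CPM by a limit of 3 counts and up to 4.50 and 2.76 CPM by the exact Poisson interval.

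As shares of the family's own UMIs, the make-up was close in both libraries in phagocytes. Oasl2 took the largest part in both libraries in phagocytes, Xist-negative cells, fibroblasts, endothelial cells and dendritic cells, but not in T cells or NK cells. Oasl2 made up 60.6% (59.8 to 61.4, exact binomial 95% interval) of the family in SHP099 Xist-negative cells and 59.0% (58.1 to 59.8) in control. In fibroblasts it made up 62.4% and 65.8%, and in phagocytes 40.5% (39.1 to 41.9) and 41.4% (39.8 to 43.1). In T cells Oas3 and Oas1a each had a larger share than Oasl2 in both libraries, from few UMIs. There Oas3 made up 30% (18.8 to 43.2) in the SHP099 library and 50% (36.3 to 63.7) in control, and Oasl2 25% (14.7 to 37.9) and 12.5% (5.18 to 24.1). Oas1a made up 26.7% and 23.2%. The SHP099 shares of Oas3, Oas1a and Oasl2 came from 18, 16 and 15 UMIs with overlapping intervals, so no order is read from them. In control the interval of Oas3 lay above that of Oasl2, while that of Oas1a overlapped it. Oasl1 made up 19.1% and 18.3% in phagocytes and 6.15% (5.76 to 6.55) and 4.93% (4.55 to 5.32) in Xist-negative cells. Within the Xist-negative cells the share of Oas3 was lower in the SHP099 library, at 9.55% (9.08 to 10.0) against 12.1% (11.5 to 12.6) in control, and these intervals did not overlap. In phagocytes the intervals of every member overlapped between the libraries.

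**Figure D2:**
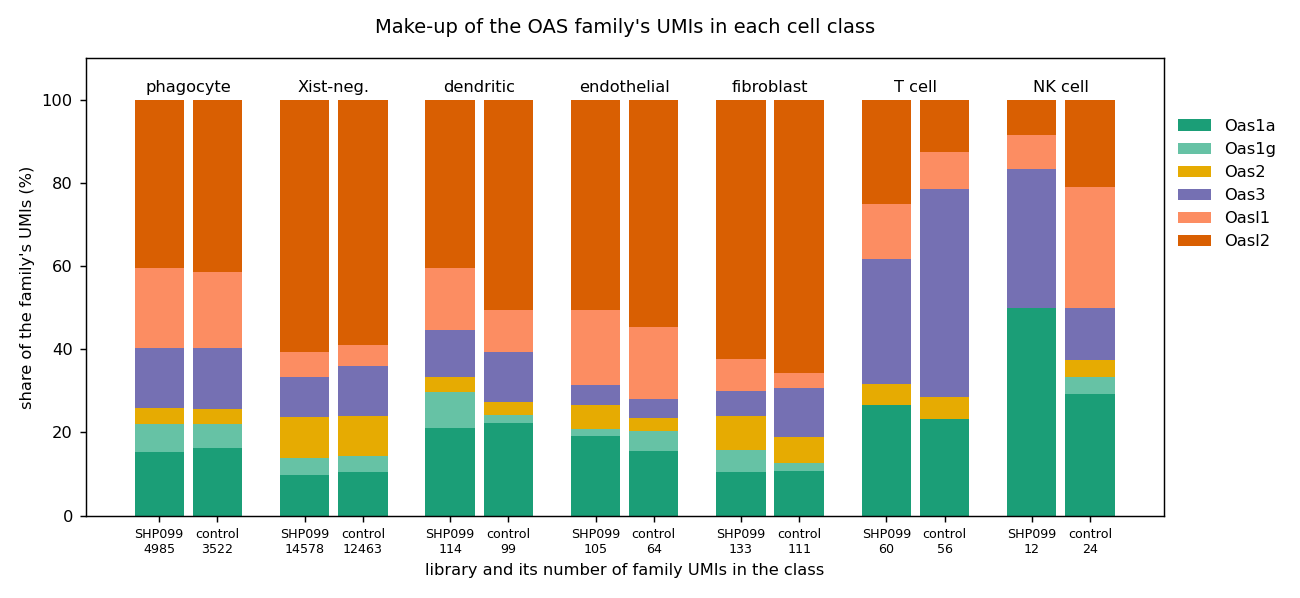
Share of the OAS family's UMIs (%, stacked to 100) from each of the 6 members in 7 cell classes, with the SHP099 library left of the control library in each pair. Numbers under the bars are the family UMIs behind them, from 12 in SHP099 NK cells to 14578 in SHP099 Xist-negative cells. Oasl2 is the largest part in phagocytes, Xist-negative cells, fibroblasts, endothelial cells and dendritic cells. Oas3 takes 30% and 50% in T cells.

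In mononuclear phagocytes all 6 members were higher in the SHP099 library, and each interval lay above 0. The family sum had a log2 ratio of 0.42 (0.36 to 0.48), a 1.34-fold difference from 4985 SHP099 UMIs and 3522 control UMIs. Oas1g had the largest ratio, 0.61 (0.37 to 0.88), and Oas2 followed at 0.55 (0.25 to 0.91). Oasl1, the inhibitor of Irf7 translation, stood at 0.48 (0.34 to 0.63). The other 3 lay close together, with Oasl2 at 0.39 (0.29 to 0.49), Oas3 at 0.39 (0.22 to 0.56) and Oas1a at 0.34 (0.18 to 0.50). Only Oas1g passed 1.5-fold, and among the 6881 genes with at least 10 CPM in either library 4.16% were that much higher and 1.77% that much lower. The members' median was 0.43, beside a median of 0.045 over all genes tested, and each member stood above at least 87.1% of those genes. Oas1g was at the limit itself: its ratio was 0.53 when cells with over 10% mitochondrial UMIs were left out.

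In Xist-negative cells the family sum was higher in the SHP099 library by almost the same ratio, 0.40 (0.37 to 0.43), with Oas3 as the exception. Oasl2 had a log2 ratio of 0.44 (0.39 to 0.48), Oas1g 0.41 (0.27 to 0.62), Oas2 0.39 (0.29 to 0.52) and Oas1a 0.31 (0.21 to 0.43). Oasl1 had the largest, 0.67 (0.57 to 0.87), from 896 UMIs in the SHP099 library and 614 in control. It passed 1.5-fold, but at under 10 CPM in both libraries it is outside the genes counted next. It stayed past 1.5-fold under 11 of 14 other ways of filtering, clustering or scaling, and was at 0.44 in cells drawn down to 2000 UMIs, 0.43 with clusters weighted alike and 0.26 when each cell was assigned from its own markers. Under that assignment, with 478 SHP099 and 767 control cells, Oasl2 stood at 50.1 and 49.5 CPM, a ratio of 0.017, while Oas3 stood at 0.26. Oas2 was at 0.15 both drawn down and with clusters weighted alike. Oas3 stood at 0.062 (-0.042 to 0.17), an interval that includes 0 and ends below those of the other 5 members. Of the 4 members with at least 10 CPM none passed 1.5-fold, and 1.14% of the 7035 genes tested did so upwards and 0.227% downwards. Their median was 0.35, or 0.40 over all 6, beside 0.024 over all genes tested. Oas3 stood above 58.9% of tested genes, and the other 5 above 93.8% or more. Macrophage markers, a measure of stray phagocyte RNA, stood in these cells at 0.697% of their phagocyte level in the SHP099 library and 0.560% in control. The same share of the phagocytes' family level would be 2.70 and 1.62 CPM, against the 158 and 120 CPM measured. This covers stray phagocyte RNA only. Other sources were not sized, and the part of stray RNA in these levels was not tested.

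T cells gave too few UMIs for a stable value. The family sum had a log2 ratio of 0.80 (0.26 to 1.36), from 60 SHP099 UMIs and 56 control UMIs. Oasl2 had 15 UMIs in the SHP099 library and 7 in control, a ratio of 1.72 (0.43 to 3.34), and Oas1a 16 and 13 UMIs, a ratio of 0.97 (-0.14 to 2.18). These 2 of the 3 members with at least 10 CPM passed 1.5-fold, in a class where 11.6% of 6794 genes were that much higher and 8.85% that much lower. Oas3 had 18 and 28 UMIs and a ratio of 0.069 (-0.87 to 0.98), while Oasl1 had 8 and 5 UMIs and Oas2 3 in each library. The sum moved when shallow cells were left out and again when the rest were drawn down, and the cause was not tested. With every T cell drawn down to 2000 UMIs and shallower cells left out, 163 SHP099 and 296 control cells stood at 39.9 and 40.5 CPM, a ratio of -0.024. The same cells at full depth stood at 46.9 and 33.1 CPM, a ratio of 0.49, and Oasl2 in them at 4.69 and 5.23 CPM, a ratio of -0.14. Macrophage markers in T cells summed to 310 CPM, with 9 of 9 above 1 CPM, in the SHP099 library and to 247 CPM, with 7 of 9 above 1 CPM and Adgre1 at 0, in control. That is 0.973% and 0.80% of the phagocyte level, and the same share of the phagocytes' family level is 3.77 and 2.32 CPM. These values cover stray phagocyte RNA only, and stray RNA from Xist-negative cells was not sized. In T cells the MC38 list summed to 26.9 and 47.1 CPM, against 323 and 430 CPM in Xist-negative cells. The fibroblast list, which Xist-negative cells also carry, summed to 133 and 124 CPM in T cells, against 3593 and 2712 CPM.

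**Figure D3:**
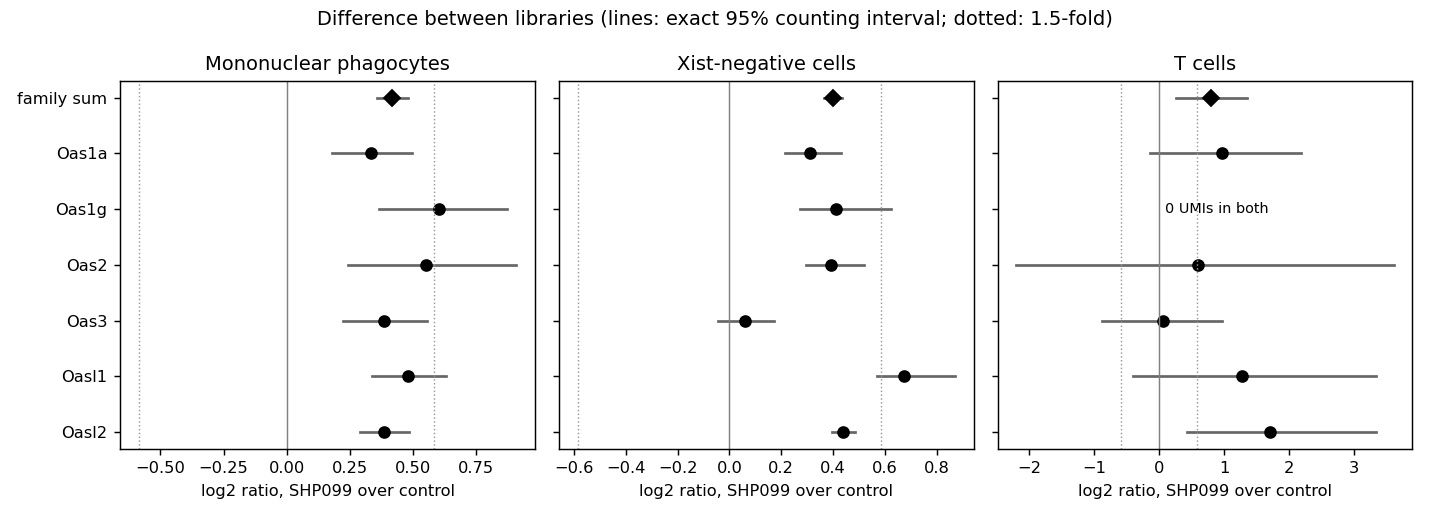
Log2 ratio of SHP099 over control (x axis, a separate scale in each panel) for the family sum (diamond) and each member (circles) in mononuclear phagocytes, Xist-negative cells and T cells. Lines are exact 95% counting intervals, the solid vertical line marks no difference and dotted lines mark 1.5-fold. All phagocyte values lie right of 0, Oas3 lies at 0.062 in Xist-negative cells, and the T cell intervals are wide.

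Among the smaller classes, endothelial cells and fibroblasts had family ratios whose intervals lay above 0, at 0.65 (0.19 to 1.13) and 0.61 (0.24 to 0.99). Each held fewer than 100 cells per library, so they are given as values. In fibroblasts Oasl2 stood at 162 CPM in 57 SHP099 cells and 112 CPM in 86 control cells, a ratio of 0.54 (0.067 to 1.01). Cluster 16 had a family ratio of 0.58 (0.15 to 1.02), in which Oas1a stood at 142 and 65.1 CPM while Oasl2, at 225 and 237 CPM, was about level. Dendritic cells, at -0.13 (-0.53 to 0.28), NK cells, at -0.15 (-1.29 to 0.90), and cluster 19, at 0.067 (-0.64 to 0.78), had intervals that include 0. Over all cells the sum stood at 187 CPM in the SHP099 library and 137 CPM in control, a ratio of 0.44 (0.41 to 0.47). Of the 5 members with at least 10 CPM there only Oasl1, at 0.68 (0.61 to 0.81), passed 1.5-fold, where 1.35% of 7326 genes were that much higher.

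Within the Xist-negative class the family's level depended more on the cluster than on the library. It ran from 43.2 CPM in cluster 14 to 244 CPM in cluster 9 in the SHP099 library, and from 29.9 CPM in cluster 14 to 200 CPM in cluster 1 in control. Cluster 9, led by Ptn, H19 and Mfap4, stood at 244 and 185 CPM, a log2 ratio of 0.40 (0.29 to 0.51). Cluster 8, led by Aspn, Ogn and Dpt and with 3 of 7 fibroblast markers, stood at 216 and 171 CPM, a ratio of 0.34 (0.26 to 0.41). Cluster 6, led by the mitosis genes Nusap1 and Cenpf, stood at 152 and 119 CPM, a ratio of 0.35 (0.28 to 0.42). Cluster 2, led by Crabp2 and by the hypoxia-induced genes Ero1l and Bnip3, was the exception. It stood at 97.8 CPM in the SHP099 library and 99.4 CPM in control, a ratio of -0.024 (-0.13 to 0.086). In all, 7 of 8 clusters had a ratio above 0 and 5 had an interval above 0. The libraries filled these clusters unequally: cluster 8 held 25.8% of SHP099 and 18.4% of control Xist-negative cells, and cluster 0, at a low 102.7 and 81.0 CPM, held 13.8% and 21.3%. With the 8 clusters weighted alike the family ratio was 0.26. In that value cluster 14, with 53 SHP099 and 60 control cells, counted as much as cluster 8.

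By member, Oasl2 had a ratio above 0 in all 8 Xist-negative clusters, and Oasl1 had an interval above 0 in 5. Oas3 had a ratio above 0 in 3 of 8 clusters and in none an interval that left out 0. Its class value changed sign with the weighting, to -0.037 with clusters weighted alike and -0.047 without cluster 8.

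In phagocytes the family ratio was above 0 in 5 of 5 clusters, with 4 intervals above 0. Cluster 3, led by the macrophage gene Ms4a7 and by Cd72, stood at 449 CPM in the SHP099 library and 333 CPM in control. Cluster 4, led by Ly6i and the monocyte gene Ly6c2, stood at 388 and 303 CPM. Cluster 5, led by Mmp12, Spp1 and Arg1, was lower at 297 and 246 CPM. Cluster 12, led by Syce2, Ccl12 and Cx3cr1, stood at 365 CPM in 233 SHP099 cells and 260 CPM in 65 control cells. The libraries filled these clusters unequally too: cluster 3 held 42.9% of SHP099 and 30.3% of control phagocytes, cluster 5 held 12.1% and 22.5%, and cluster 12 held 8.62% and 2.50%. With the 5 clusters weighted alike the family ratio was 0.37. The members behind these sums differed by cluster. Oas1a, Oas1g and Oasl1 had a ratio above 0 in 5 of 5 clusters, and Oas2, Oas3 and Oasl2 in 4 of 5. Over the 5 clusters Oasl2 ran from -0.47 to 0.68 and Oas1a from 0.030 to 1.58. The low end for Oasl2 and the high end for Oas1a were those of cluster 15, the shallowest, at a median of 1198.5 UMIs. It held 152 SHP099 and 140 control cells, with 3.11% and 3.92% of the phagocytes' family UMIs, so both ends rest on few counts. Oas1a had a ratio of 0.64 (0.38 to 0.92) in cluster 4 and of 0.030 (-0.22 to 0.28) in cluster 3, and these intervals did not overlap. Oasl2 went the other way, at 0.26 (0.080 to 0.45) in cluster 4 and 0.55 (0.39 to 0.71) in cluster 3, with intervals that overlap. The differences between clusters were not tested.

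**Figure D4:**
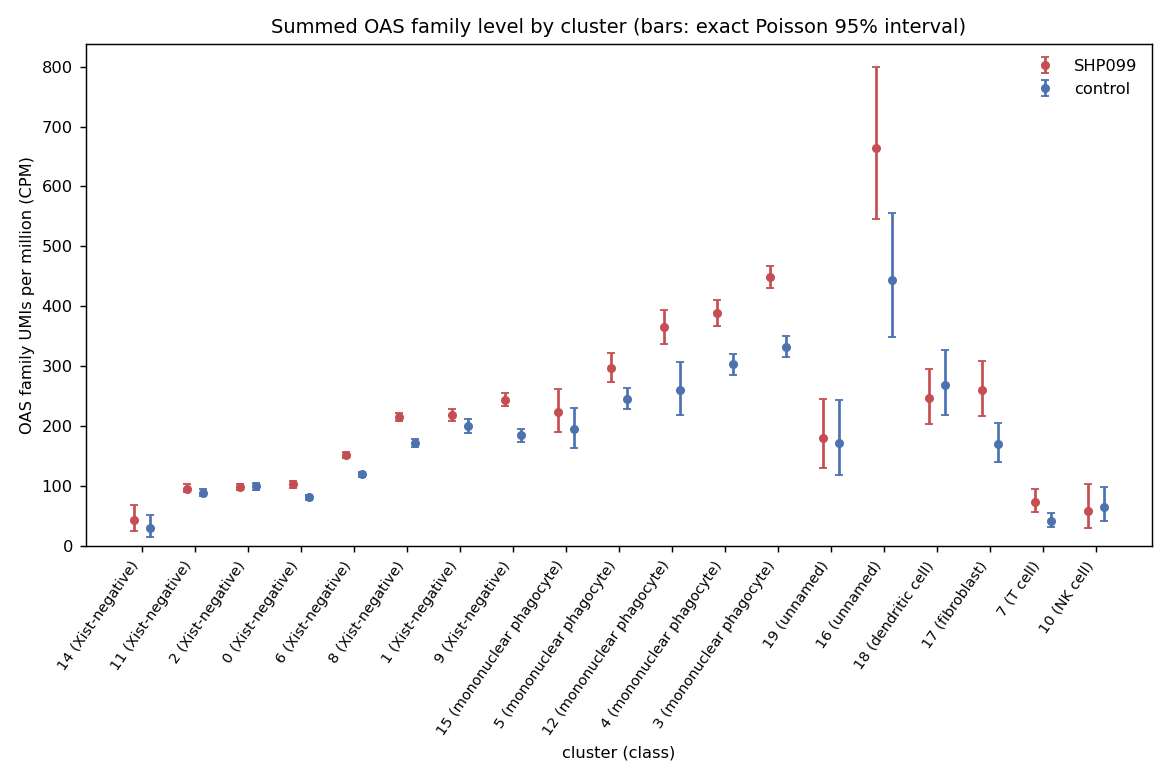
Summed level of the 6 OAS genes in CPM in each of the 19 clusters with at least 50 cells in both libraries, grouped by class, SHP099 in red and control in blue. Points are single-library values and bars exact Poisson 95% intervals. Cluster 16 is highest at 664 and 444 CPM, the phagocyte clusters lie above most Xist-negative clusters, and cluster 2 shows no gap between the libraries.

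How often the members were found together in a cell depended on its depth. To set cells of unequal depth side by side, each was drawn down to 2000 UMIs and shallower cells were left out, 304 SHP099 and 293 control phagocytes and 30 and 77 Xist-negative cells. At least 1 UMI of any member was then found in 48.5% (46.5 to 50.5) of SHP099 phagocytes and 40.9% (38.9 to 42.9) of control phagocytes. In Xist-negative cells the shares were 28.2% (26.9 to 29.6) and 22.9% (21.6 to 24.2), and in T cells 7.98% (4.31 to 13.3) and 7.09% (4.45 to 10.6). At full depth the shares were 69.6% and 61.7% in phagocytes, 83.6% and 80.9% in Xist-negative cells and 18.9% and 11.6% in T cells. Median depths were 20152 and 24315.5 UMIs per Xist-negative cell and 4292 and 4403 per phagocyte, and no order of classes is read from the full-depth shares, which go against the CPM. No class can be taken to lack OAS genes, so stray RNA has no clean background here. T cells, the lowest of the 3 compared classes, are given in its place. Drawn down, an Oasl2 UMI was found in 0 of 163 SHP099 T cells, which by a limit of 3 counts allows up to 1.84% of such cells with a UMI, and in 1.01% of control T cells. At full depth it was found in 4.55% of 286 and 1.65% of 424 T cells, so the limit holds for the drawn-down cells only. It was found in 25.8% and 21.6% of phagocytes and in 19.02% and 14.9% of Xist-negative cells.

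At full depth at least 3 members were found in 15.7% of SHP099 phagocytes and 9.92% of control phagocytes, and in 24.2% and 22.1% of Xist-negative cells. At least 3 members were found in 3.29% of SHP099 phagocytes and 1.65% of control phagocytes after drawing down, and 2 members in 12.0% and 8.66%. In Xist-negative cells these shares were 0.516% and 0.390% for at least 3 members and 3.99% and 2.61% for 2. The variance of the family's UMIs over their mean, which is 1 for counting noise alone, was 1.52 in SHP099 phagocytes and 1.30 in control phagocytes. It was 1.30 and 1.31 in Xist-negative cells. For cells that vary alike this measure rises with the mean, so no order of classes or libraries is read from it. The mean was 0.81 and 0.60 family UMIs per phagocyte and 0.38 and 0.29 per Xist-negative cell. Oasl1 had the highest value of the members in phagocytes, at 1.39 and 1.29, while Oasl2, with a higher mean, stood at 1.15 and 1.09. All 6 members were found at full depth in 20 SHP099 and 14 control cells.

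**Figure D5:**
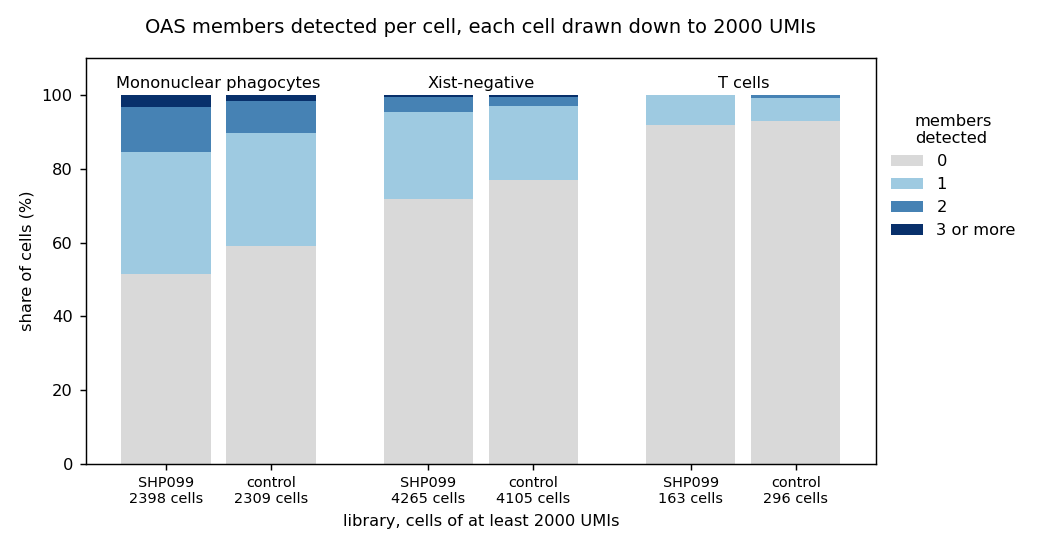
Share of cells (%, stacked to 100) with UMIs of 0, 1, 2 or at least 3 OAS members after each cell was drawn down to 2000 UMIs, for the SHP099 library and the control library in 3 classes. The number of cells is under each bar, and there is 1 library per group. Cells without any member are 51.5% and 59.1% of phagocytes, 71.8% and 77.1% of Xist-negative cells and 92.0% and 92.9% of T cells.

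For 2 further genes of the adenylate chain pathway, the intervals in phagocytes and in Xist-negative cells take in 0. Abce1, which encodes a ribosome recycling factor that is also known to dampen the pathway, had a log2 ratio of -0.0024 (-0.24 to 0.24) in phagocytes and 0.014 (-0.039 to 0.067) in Xist-negative cells. Pde12, a phosphodiesterase that breaks the chains down, stood at 0.14 (-0.28 to 0.57) and -0.068 (-0.20 to 0.058). Its phagocyte interval also takes in the family's 0.42. In T cells Abce1 was past 1.5-fold upwards at 0.70 (-0.045 to 1.46) and Pde12 downwards at -0.72 (-1.88 to 0.30), from 11 SHP099 and 30 control UMIs, and both intervals take in 0.

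The factors that induce OAS genes went in both directions. Irf7 was higher at 120 CPM in SHP099 and 72.9 CPM in control Xist-negative cells, a log2 ratio of 0.72 (0.68 to 0.76). In phagocytes it stood at 581 and 475 CPM, a ratio of 0.29 (0.24 to 0.34), and in T cells at 137 and 72.5 CPM, a ratio of 0.91 (0.51 to 1.32). Stat2, which encodes a factor of type I interferon signalling, stood at 0.41 (0.23 to 0.61) in phagocytes and 0.20 (0.14 to 0.26) in Xist-negative cells. Irf9, which encodes a DNA-binding partner of that factor, stood at 0.29 (0.11 to 0.47) and 0.074 (-0.0057 to 0.16). Irf1, a factor strongly induced by interferon gamma, was lower, at -0.57 (-0.71 to -0.45) in phagocytes and -0.25 (-0.30 to -0.21) in Xist-negative cells. The receptor subunit gene Ifnar1 stood at 0.37 and 0.41, and Ifnar2 at -0.19 and 0.023. Of these 6 genes, 1 passed 1.5-fold upwards in Xist-negative cells (Irf7), 2 in T cells (Irf7 and Stat2) and 0 in phagocytes. In all 3 classes 0 were as much lower. Over all genes tested, 1.14% were that much higher in Xist-negative cells, 11.6% in T cells and 4.16% in phagocytes. The shares that much lower were 0.227%, 8.85% and 1.77%. Stat2 in T cells stood at 0.78 (-0.31 to 1.92), from 16 SHP099 and 15 control UMIs.

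The other sensors of double-stranded RNA were mostly higher, like the OAS genes. Of all genes tested in phagocytes, 4.16% passed 1.5-fold upwards and 1.77% downwards, and of these sensors 3 of 7 passed upwards and 0 downwards. These were Ddx58, which encodes RIG-I, at 0.81 (0.63 to 1.00), the RNA-dependent kinase gene Eif2ak2 at 0.70 (0.54 to 0.88) and Ifih1, which encodes MDA5, at 0.64 (0.50 to 0.78). In Xist-negative cells Dhx58, a regulator of both helicases, was the 1 of 6 that passed, at 0.62 (0.53 to 0.76), and Ifih1 stood at 0.55 (0.49 to 0.62). Of all genes tested there, 1.14% passed upwards. In T cells 1 of 6 passed, Ifih1 at 0.91 (-0.048 to 1.92) from 21 SHP099 and 18 control UMIs. Its interval takes in 0, and 11.6% of all genes tested passed upwards in that class. The editing enzyme gene Adar, which marks self RNA by changing adenosines, stood at 0.35 in phagocytes and 0.44 in Xist-negative cells. The adaptor gene Mavs, which carries the helicases' signal, stood at -0.17 (-0.54 to 0.18) and -0.10 (-0.25 to 0.035). Zbp1, a sensor that can trigger cell death, was lower at -0.20 (-0.28 to -0.12) and -0.29 (-0.32 to -0.27). The list's medians were 0.35 in phagocytes and 0.42 in Xist-negative cells over the genes with at least 10 CPM, beside the OAS medians of 0.43 and 0.35.

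Of 6 further OAS symbols listed, 5 were in the files and none reached 10 CPM in a compared class. Oas1c had 70 UMIs in SHP099 and 36 in control phagocytes, a log2 ratio of 0.78 (0.28 to 1.5), and stood at 3.41 and 3.20 CPM in Xist-negative cells. Oas1d and Oas1e had at most 6 UMIs per library in Xist-negative cells and 0 in phagocytes and T cells, and Oas1f and Oas1h had 0 in all 3 classes.

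Across clusters most members varied together, and Oas2 the least closely. Over 38 profiles, 19 clusters in each of 2 libraries, the log2 levels of Oas1g and Oasl2 had a Pearson correlation of 0.85, and those of Oas1a and Oasl1 also 0.85. The 6 pairs among Oas1a, Oas1g, Oas3 and Oasl1 ran from 0.64 to 0.85. Oas2 had correlations from 0.11 with Oas1a, the lowest of the 15 pairs, to 0.67 with Oasl2. The profiles share their library and depth and cover few cell types, so these values describe them only. Among 5448 genes with at least 50 CPM in 1 profile, the mean of the members was most closely followed by Irf2bp2 at 0.92, Zfp36 at 0.91, Fos at 0.90, Trim25 at 0.90 and Nfe2l2 at 0.90. Of these 5, Trim25 was among the interferon genes kept out of the clustering.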

How the data were processed

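Single cells of MC38 tumours were measured with the 10x Chromium 3' protocol, per the labels' protocols. The deposited matrices hold UMI counts per gene and barcode, made with Cell Ranger (version not given in the sources used here) on mm10 (GRCm38), as the submitters' processing notes state. Output format 3.1.0 is named in the file headers. Dissociated cells can lose fragile types, and no sort is mentioned.

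Barcodes with at least 200 genes and at most 20% mitochondrial UMIs were kept, which removed 103 and 260 in the SHP099 library and 99 and 194 in control. Scrublet called 198 (2.51%) and 264 (3.32%) doublets, which were removed, fewer than the 6.32% and 6.36% assumed for these numbers. The 2 libraries were clustered together without integration, from 2000 variable genes, 30 components, 15 neighbours and Leiden resolution 1 with seed 1. Left out of the variable genes were 117 listed interferon genes, OAS genes included, and mitochondrial, ribosomal, haemoglobin and immunoglobulin genes. A cluster took the name of the best-scoring marker list if 3 or more of its markers reached 10% of the cluster's cells and 2 times their level elsewhere. It stayed unnamed if another class's markers led it or its median UMIs times 3 fell short of the median over all cells and none of its list's markers was among its top 10 genes. Clusters with less than 0.1 of the median cluster's Xist formed a class of their own. Tools were scanpy 1.11.5, python-igraph 0.11.9, scikit-learn 1.9.0, pandas 2.3.3, scipy 1.17.1, numpy 2.4.6, biopython 1.88 and matplotlib 3.10.9 under Python 3.11.15.

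UMIs were summed per library and class. Poisson, binomial and ratio intervals are exact at 95%, and ratio intervals leave out the 0.5 CPM that was added. The ratio and interval steps were tried on simulated Poisson counts, the model that the intervals assume. The drawing down was checked for its total per cell. Clustering, class naming and doublet calls were not tried on simulated data. No test was run and no p-value or standard error given, since cells of 1 library are not replicates. The members, gene lists and marker lists were chosen with earlier results of these data known. Named genes are the members, the listed pathway genes, the 5 genes most like the members, and markers or leading genes of clusters. Of the listed pathway genes, 2 are not reported here.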

Additional observations from a re-analysis of the deposited data

Results flagged for a closer look

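Zbp1 stood out because its difference between the libraries went opposite ways in T cells and in the other 2 compared classes, with counting intervals that left out 0 in each. It had a log2 ratio of SHP099 over control of 0.57 in T cells, against -0.29 in Xist-negative cells and -0.20 in phagocytes, differences of 0.87 and 0.77. With 1 library per group neither difference was tested.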

How the results depend on the processing

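The family ratio in phagocytes kept its direction and stayed within counting error of 0.42 under all 14 planned and 7 added alternatives, from 0.36 without cluster 3 to 0.45 with at least 500 genes per cell. In Xist-negative cells it stayed above 0 under all 14 planned and 8 added alternatives. It was 0.40 as reported and 0.15 when each cell was assigned from its own markers, which kept only 478 SHP099 cells. It was 0.26 with clusters weighted alike, 0.36 drawn down to 2000 UMIs, 0.36 without cluster 0, 0.45 without cluster 2 and 0.36 without cluster 8. In T cells it was -0.024 after drawing down, and lay between 0.49 and 1.05 under the other 13. The drawn-down value comes from 1 random draw and has no interval. A family UMI was found in only 13 of 163 SHP099 and 21 of 296 control T cells in that draw. Drawn down, Oas2 was at -0.12 and Oasl2, with 0 SHP099 UMIs, at -3.48, a value set by the added 0.5 CPM. In the same cells at full depth they were at -0.12 and -0.14. The cause was not tested. With at least 500 genes per cell or each library clustered alone, no T cell class of at least 200 cells was left. With a limit of 1 CPM in place of 10 CPM, genes past 1.5-fold were 2507 higher and 1828 lower in T cells, 237 and 43 in Xist-negative cells and 810 and 378 in phagocytes. Shares of cells with a UMI of any member at full depth were 18.9% and 11.6% of T cells, 83.6% and 80.9% of Xist-negative cells and 69.6% and 61.7% of phagocytes in the SHP099 and control libraries. The alternatives that left out single clusters, joined clusters 16 or 19 or took deep cells at full depth were chosen after seeing the data. No paired analysis was possible because each group has 1 library.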
